A study of Mus musculus with 6 samples.

Results

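Among the GL261-GSCs libraries, 846 of 14893 deeply sequenced cells held 0 or 1 UMI of Olig2, the transcription factor that marks the oligodendrocyte lineage. A UMI is a molecular tag, counted once for each captured RNA molecule. A deep cell is a barcode with at least 8000 UMIs, at least 500 genes and under 10% mitochondrial UMIs, and the series held 22868 of them. The Olig2-low cells were compared with the 10864 cells of the same libraries that held 5 or more Olig2 UMIs, called Olig2-high here. The remaining 3183 cells, with 2 to 4 Olig2 UMIs, served as an intermediate class.

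The mouse glioma line GL261 gave 2 libraries, from cells cultured with fetal calf serum in a medium for differentiation. GL261-GSCs, whose label names glioblastoma stem cells, grew in a defined medium for such cells and gave 4 libraries. No drug, transgene or time course was applied to either. Spheres and cells were separated with Accutase and passed through a buffer holding the detergent IGEPAL CA-630 before droplet capture, and the labels do not say which of the 2, whole cells or nuclei, entered the droplets. They also do not say whether the 4 GL261-GSCs libraries came from separate cultures, so that p-values measure the spread between these libraries.

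Olig2 and its neighbour Olig1 are basic helix-loop-helix factors that specify oligodendrocyte precursors, together with Sox10 and Nkx2-2. In glioma, Olig2 is known as a factor of proliferating, stem-like tumour cells with a precursor programme. Tumour cells that lose it are often described with astrocytic or mesenchymal genes, among them Cd44, Spp1 and the Id factors. Stress programmes form a further set of known glioma states: ATF4 and CHOP act when amino acids or protein folding fail, HIF factors act in low oxygen, and interferon genes answer viral or endogenous nucleic acids.

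Olig2 (ENSMUSG00000039830.9, GRCm38 chromosome 16, 91225457 to 91228677) is the gene the classes were selected on, so its counts are a description with no test. In replicate 1 the Olig2-low cells were 255 of 3603 deep cells, a share of 7.08% (exact Clopper-Pearson 95% interval 6.26 to 7.96). Replicate 2 held 395 of 4638, or 8.52% (7.73 to 9.36). Replicate 3 held 104 of 4867, or 2.14% (1.75 to 2.58), and replicate 4 held 92 of 1785, or 5.15% (4.17 to 6.28). The mean share was 5.72% ± 2.76 (SD, n = 4), highest in replicate 2 and lowest in replicate 3. These intervals cover counting error only.

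Around the threshold there was no gap. Cells with 0 Olig2 UMIs numbered 96, 141, 27 and 33 in replicates 1 to 4. Cells with 1 UMI, just inside, numbered 159, 254, 77 and 59, and cells with 2 UMIs, just outside, numbered 280, 422, 124 and 79. Counts thus climbed from 0 through 2 UMIs in every library.

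More cells were Olig2-low than Poisson counting at each cell's depth would give, a description of the counts that set the classes. No other gene was set against Poisson counting. If Olig2 had taken the same share of UMIs in all cells of a library, Poisson counting at each cell's own depth would have left 88.6, 169, 7.90 and 11.5 cells with 0 or 1 UMI, so that the observed numbers were 2.88, 2.34, 13.2 and 7.99 times as large. The variance of the Olig2 count was 2.33 to 3.17 times its mean. Depth differed between the classes: the median depth of Olig2-low cells was 13232, 11302, 9867 and 9802 UMIs, against 17790, 14014, 13423 and 11484 in Olig2-high cells. Among cells of 16000 UMIs or more, the share of Olig2-low cells was 3.54%, 4.39%, 0.57% and 3.14%, which rested on 70, 47, 7 and 6 cells, where Poisson counting gave 0.369%, 0.362%, 9.65e-04% and 0.00659%. Among cells of 8000 to 12000 UMIs it was 16.03%, 12.8%, 3.80% and 6.52%, where Poisson counting gave 8.97%, 7.29%, 0.389% and 1.01%. The Olig2-low share was lower in the deepest band than in the shallowest in every library, and above the Poisson share in both. Those Olig2-low cells that Poisson counting alone would give cannot be told apart from the others.

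**Figure D1:**
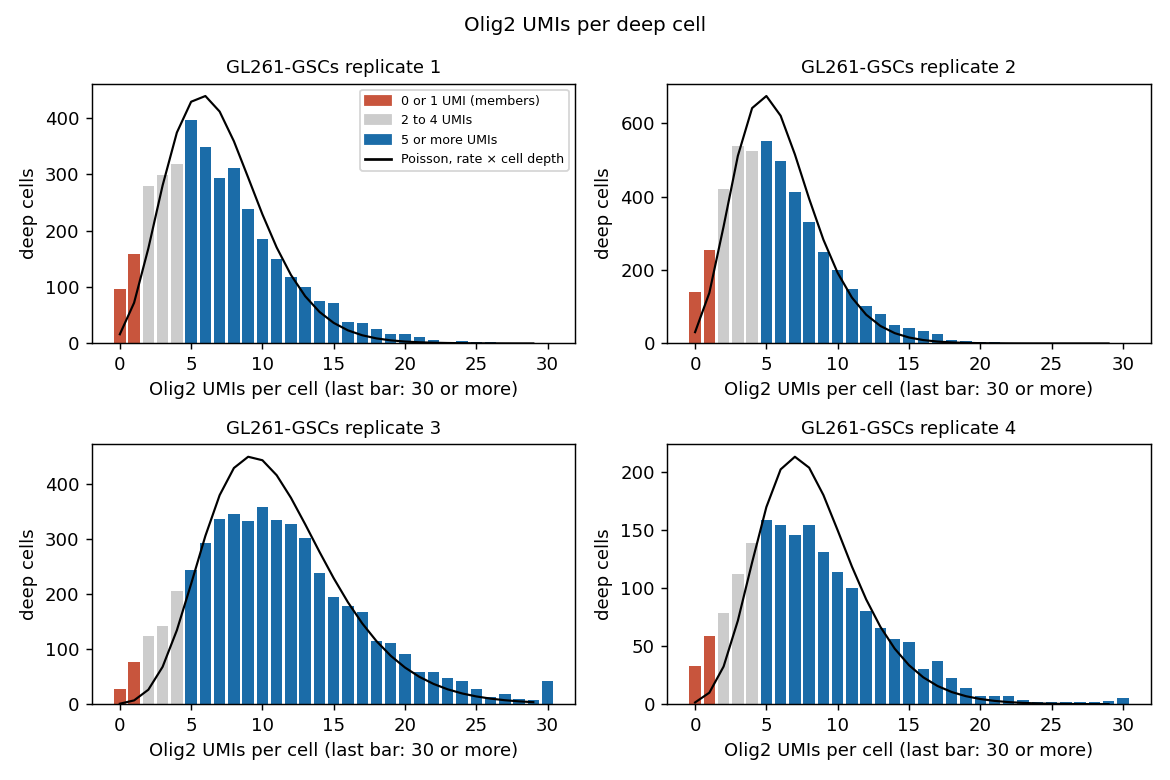
Olig2 UMIs per deep cell (x axis) against the number of cells (y axis) in each GL261-GSCs library, with members (0 or 1 UMI) in red, 2 to 4 UMIs in grey and 5 or more in blue; the line is the sum of Poisson distributions at the library's Olig2 share of UMIs times each cell's depth. The bars form 1 continuous hump in each library, and both tails stand above the line.

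Free RNA also carried Olig2. Barcodes with 100 to 1000 UMIs, which hold mostly free RNA, had 406, 392, 884 and 705 CPM of Olig2 (CPM, the gene's UMIs scaled to a common total), close to the 406, 428, 802 and 698 CPM of the deep cells. A droplet of 8000 UMIs with the composition of free RNA would have held on average 3.25, 3.13, 7.08 and 5.64 Olig2 UMIs, more than any Olig2-low cell. In serum-grown GL261 the gene was nearly silent, at 0.891 and 0.0163 CPM, and only 2 of 7975 deep cells held 2 or more Olig2 UMIs.

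Few Olig2-low cells resembled serum-grown GL261. Scored without Olig2 by the likelihood of its UMIs under either profile, 2 of the 846 cells, 1 in replicate 2 and 1 in replicate 4, were closer to GL261 than to the Olig2-high cells of their own library. Of the Olig2-high cells, 1 of 2757 in replicate 2 was closer to GL261, and 0 in replicates 1, 3 and 4. Pairs of GL261-GSCs libraries shared 10 to 36 deep-cell barcodes, and no barcode was that of an Olig2-low cell in both. Olig2-low cells are a small share of each library, so few or none would be shared in any case, and this count is uninformative. Of the Olig2-low cells, 5 in replicates 1 and 2 carried a barcode also called deep in GL261 replicate 1, and 1 in replicate 2 a barcode of GL261 replicate 2. Barcodes shared with GL261 were not counted for the other cells.

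Nor did they lie apart from the other cells. With Olig2 left out of the genes, Olig2-low cells made up 10.7%, 11.9%, 5.13% and 11.2% of the 30 nearest neighbours of an Olig2-low cell, against 7.05%, 8.50%, 2.12% and 5.10% of all other deep cells. The ratio was 1.51, 1.40, 2.42 and 2.19. Cells whose neighbours were mostly Olig2-low numbered 1, 3, 0 and 0. The Olig2-low cells lay near each other more than their share alone would place them, but nearly all were surrounded by other cells.

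Differences in other genes were measured within each library. Every cell was thinned to 8000 UMIs, the UMIs of each class were summed per library, and the 8 sums were compared with edgeR's quasi-likelihood test with the library as a block and Olig2 removed. A gene was called when its Benjamini-Hochberg adjusted p was under 0.05. Of 12353 genes tested, 1798 were called (14.6%), of which 943 were higher in Olig2-low cells (7.63% of genes tested) and 855 lower (6.92%). The same direction in all 4 libraries was seen for 828 of the genes called higher and 820 of those called lower. The 2 directions differed in size: 212 genes were at least 2-fold higher and 6 at least 2-fold lower. The count of calls fell to 867 (539 higher, of 12392 tested) without replicate 3 and 1047 (578 higher, of 12341) without replicate 1. It was 1197 (620 higher, of 12229) without replicate 2, and with no replicate block 9 genes were called. Scaling by total UMIs alone moved the median of all genes by 0.06 on the log2 scale and changed the split to 1150 higher and 492 lower. Values below are log2 differences, Olig2-low minus Olig2-high, with the standard error (SE) of the fit.

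Because depth moved with the class, the fit was repeated in a narrower range of depth. It held cells of 8000 to 12000 UMIs only, where median depths were 9209 to 9696 in Olig2-low and 9867 to 10507 in Olig2-high cells. Depth was still lower in Olig2-low cells of each library. Of 10453 genes tested in this range, 683 were called, 418 higher and 265 lower. Of the 1682 genes called before that could be fitted there, 1677 kept their direction. These cells are part of those that gave the first calls, so kept direction is partly built in. Against cells with 2 to 4 Olig2 UMIs, 484 of 11108 genes tested were called, 319 higher and 165 lower. Of the 42 named genes called in all cells, 6 lost their call at 8000 to 12000 UMIs: Sapcd2, Ube2c, Cdkn3, Sox2, Itpr2 and Uhrf1.

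The oligodendrocyte lineage factors with lower levels were Olig1 and Sox10. Olig1 (ENSMUSG00000046160.6, chromosome 16, 91269772 to 91271933) lies next to Olig2 and was the lineage factor with the smallest p. It stood at 256, 608, 531 and 553 CPM in the Olig2-low cells of replicates 1 to 4, against 428, 945, 950 and 993 CPM in Olig2-high cells. Every library was lower in Olig2-low cells, with a difference of -0.82 (SE 0.08, adjusted p = 5.3e-08, edgeR). Olig1 UMIs were nevertheless found in most Olig2-low cells: 67.8%, 85.8%, 86.5% and 87.0% held at least 1 at 8000 UMIs, against 88.9% to 98.5% of Olig2-high cells. Free RNA held 368 to 944 CPM of Olig1, close to the level of Olig2-high cells, and GL261 held 1.42 and 0 CPM. The part of free RNA in the Olig1 UMIs of Olig2-low cells was not tested.

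Sox10, the factor that drives myelin genes with Olig2, also fell, with a difference of -0.44 (SE 0.09, adjusted p = 9.01e-04, edgeR). Its level was 323, 290, 285 and 230 CPM in Olig2-low cells and 411, 398, 303 and 350 CPM in Olig2-high cells, lower in 4 of 4 libraries. Nkx2-2 differed by -0.18 and did not pass the test (adjusted p = 0.50, edgeR). Of the 12 lineage factors tested, 2 were lower, Olig1 and Sox10, 1 was higher, the E protein Tcf12 (0.41, SE 0.09), and 9 were not called, with a median of -0.18 (-0.08 without replicate 2). No factor was called higher without replicate 3, without replicate 4, in low-cycle cells or with each gene counted once per cell. Low-cycle cells are those at or under their library's median for the summed G1/S genes and for the summed G2/M genes. Tcf12 encodes a dimer partner of basic helix-loop-helix factors. Sox9 had 0 UMIs in these libraries.

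Precursor genes outside the transcription factors had no stable direction. Of 16 tested, 3 were higher (Xylt1, Tmeff2 and Sema5a), none was lower, and the median difference was 0.02. Pdgfra, the PDGF receptor that marks oligodendrocyte precursors, differed by -0.19 (adjusted p = 0.246), Cspg4, which encodes the NG2 proteoglycan, by -0.14 (adjusted p = 0.351), and Ptprz1, a receptor phosphatase of precursors and glioma, by -0.15 (adjusted p = 0.298, edgeR). Without replicate 1 Pdgfra was called, at -0.37 (adjusted p = 0.0373), while Cspg4 stood at -0.24 (adjusted p = 0.201) and Ptprz1 at -0.25 (adjusted p = 0.151, edgeR). Kit, the stem cell factor receptor, differed by 0.02 (adjusted p = 0.941, edgeR), with 129, 93.7, 51.7 and 17.7 CPM in Olig2-low and 107, 84.9, 50.4 and 36.0 CPM in Olig2-high cells. The 3 calls were not stable: with each gene counted once per cell, 0 of 16 were higher and 2 lower, and 0 were higher and 3 lower against cells with 2 to 4 Olig2 UMIs, with Olig2 counted after thinning and in low-cycle cells. Also, without replicate 3 none was called, and leaving out any 1 library put the adjusted p of Xylt1 at 0.0502 to 0.118 (edgeR).

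Myelin genes gave a mixed count. Itpr2, an inositol trisphosphate receptor used to mark newly committed oligodendrocytes, was higher by 0.74 (SE 0.14, adjusted p = 6.37e-04, edgeR), at 28.4, 34.2, 39.7 and 38.0 CPM against 14.7, 25.2, 17.6 and 19.5 CPM. Bcas1, a marker of early myelinating cells, fell by 0.32 on the log2 scale. Mbp differed by -0.02 (adjusted p = 0.943, edgeR). Of the 10 genes tested, 2 rose and 1 fell. The count was 1 and 0 without replicate 3, 2 and 0 of 9 without replicate 2, 3 and 1 without replicate 1, and 2 and 3 of 13 without replicate 4. Against cells with 2 to 4 Olig2 UMIs none rose and 3 fell, and Itpr2 stood at 0.23 (adjusted p = 0.320, edgeR).

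Neural stem cell and glial genes moved in both directions. Sox2, a factor that keeps neural cells undifferentiated, was lower by a log2 difference of -0.33 (SE 0.09, adjusted p = 0.0122, edgeR), Myc fell by 0.44 and Bmi1 by 0.39, while Msi1, Lrig1 and Pou3f3 rose, so that 3 of 11 stem cell genes were called in each direction. Without replicate 1 Sox2 was not called (-0.29, adjusted p = 0.111, edgeR), and without replicate 2 none of the 11 was called higher. At 8000 to 12000 UMIs, against cells with 2 to 4 Olig2 UMIs and with Olig2 counted after thinning, 0 were higher and 1 lower, and DESeq2 gave 0 higher and 3 lower. Nes, which encodes the intermediate filament nestin, differed by 0.00 (SE 0.08, adjusted p = 0.991, edgeR). Fabp7, a lipid carrier of radial glia, fell by 0.49 and was lower in 4 of 4 libraries.

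Astrocyte genes were led by Mt3, a brain metallothionein. It was measured at 363, 573, 655 and 675 CPM in Olig2-low cells and at 206, 183, 233 and 184 CPM in Olig2-high cells, a rise of 1.39 (SE 0.11, adjusted p = 1.48e-09, edgeR). No Olig2-low library overlapped an Olig2-high one. Clu, Gja1 and S100b rose by 0.53, 0.41 and 0.33, Nfia and Fabp7 fell, and the other 9 of the 15 astrocyte and radial glia genes tested were not called. Without replicate 3, 2 of the 15 rose, and against cells with 2 to 4 Olig2 UMIs 1 of 14 rose. With each gene counted once per cell none of the 4 rises was called and Mt3 stood at 0.15.

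Rises in the mesenchymal list were led by Spp1 (ENSMUSG00000029304.14, chromosome 5, 104435118 to 104441050), which encodes the secreted matrix protein osteopontin, a ligand of Cd44. Its level was 125, 66.8, 96.2 and 20.4 CPM in Olig2-low cells, against 7.14, 4.76, 11.5 and 2.11 CPM in Olig2-high cells. The difference was 3.59 (SE 0.15, adjusted p = 1.41e-15, edgeR), a 12.04-fold rise with no overlap between the classes. Few cells carried it. Of the 562 Spp1 UMIs in Olig2-low cells, 82.2% were in 10 cells and 151 were in 1 cell, and 63 of the 846 cells held any. The share of cells with a UMI was still higher in each library, at 9.80%, 4.56%, 14.4% and 5.43% against 1.55%, 1.2%, 3.52% and 1.47%. Counted once per cell, Spp1 rose by 2.15 (adjusted p = 4.03e-06, edgeR). Free RNA held 7.39 to 37.6 CPM of Spp1, above the Olig2-high cells of the same library in each case.

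Of the 16 mesenchymal and serum-line genes tested, 9 rose and none fell, with a median of 0.49 against 0.00 over all genes. Lgals3, which encodes galectin 3, rose by 1.66 (SE 0.13), at 117, 84.5, 779 and 432 CPM against 38.8, 13.7, 231 and 206 CPM. Cd44, the hyaluronan and osteopontin receptor, rose by 0.49 (SE 0.10, adjusted p = 0.00176, edgeR), at 91.7, 79.4, 99.8 and 63.9 CPM against 70.7, 57.7, 48.1 and 46.4 CPM. S100a6, Anxa1, Cyr61, Col1a1 and Tgfbi were also among the rises. Counted once per cell, 4 of 16 rose and the median was 0.21. The intermediate filament gene Vim, at 4374 to 5565 CPM in Olig2-low cells, differed by -0.01 (adjusted p = 0.964, edgeR). The summed list held 9716 to 13164 CPM in Olig2-low and 10294 to 11527 CPM in Olig2-high cells, against 31363 and 32754 CPM in GL261, so the Olig2-low sum remained near that of the stem cell libraries. In replicate 1 this sum was lower in Olig2-low cells, at 77.7 against 82.3 UMIs per cell at 8000 UMIs. In replicates 2 to 4 it was higher.

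Gpnmb, which encodes a transmembrane glycoprotein of lysosomes and of glioma and myeloid cells, had a UMI in more Olig2-low cells than the other 11 of the 12 largest rises among genes whose mean log2 CPM reached 5 and whose 4 libraries shared 1 direction. It stood at 1150, 1163, 2102 and 1567 CPM in Olig2-low cells and at 370, 547, 544 and 680 CPM in Olig2-high cells, a difference of 1.41 (SE 0.10, adjusted p = 7.36e-11, edgeR), with no overlap between the classes. A UMI was found in 725 of the 846 Olig2-low cells, and the 10 highest cells held 25.9% of the UMIs. Because most cells of both classes have a UMI, counting Gpnmb once per cell leaves a difference of 0.14 (adjusted p = 0.128, edgeR). GL261 held 389 and 267 CPM, below the Olig2-low cells. Of the microglia markers none was expressed enough to be tested, 4 of 8 were at 0 in Olig2-low cells, and their sum was 0 to 3.92 CPM against 0.262 to 0.953 CPM in Olig2-high cells.

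Stress genes of the ATF4 pathway made a broad set of rises. Ddit3, which encodes the stress factor CHOP, stood at 62.7, 57.6, 75.7 and 81.5 CPM in Olig2-low cells against 17.0, 19.3, 16.6 and 18.6 CPM in Olig2-high cells. The rise was 1.83 (SE 0.12, adjusted p = 1.15e-11, edgeR), even across libraries and without overlap. Of the 19 amino acid stress genes tested, 10 rose, among them Chac1 (1.5), a glutathione-degrading enzyme, Trib3 (1.28), a pseudokinase induced by CHOP, and Sesn2 (0.94), an inhibitor of mTORC1 signalling. Only Phgdh, the first enzyme of serine synthesis, was lower among them, and the list's median was 0.41 (0.25 without replicate 4). No gene of the list was lower without replicate 1, without replicate 3 or at 8000 to 12000 UMIs. At 8000 to 12000 UMIs 9 rose and the median was 0.53, and counted once per cell 7 rose with a median of 0.04.

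Nupr1, a stress-induced chromatin protein, had the smallest p of all genes and was singled out after its values were seen, since its mean level lay under the minimum for named genes. It rose by 3.44 (SE 0.13, adjusted p = 2.2e-16, edgeR) from 6.73 to 10.03 CPM in Olig2-high cells to 66.6 to 125 CPM in Olig2-low cells. A UMI was present in 17.3% of Olig2-low and 4.64% of Olig2-high cells, pooled over libraries, and 10 cells held 51.2% of the Olig2-low UMIs. Counted once per cell it rose by 1.73.

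Gdf15, a secreted stress cytokine and p53 target, rose by 1.89 (SE 0.13, adjusted p = 4.13e-11, edgeR), at 41.7, 63.6, 39.7 and 51.6 CPM against 11.9, 15.7, 11.6 and 10.7 CPM. Cdkn1a, which encodes the cell cycle inhibitor p21, rose by 0.55 (SE 0.09), at 168, 166, 301 and 277 CPM against 130, 100, 176 and 188 CPM. Of 14 CDK inhibitors and p53 targets tested, 6 rose, 1 (Phlda3) fell, and the median was 0.17. Without replicate 3, 3 of the 14 rose.

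Hmox1, the heme-degrading enzyme heme oxygenase 1, rose by 2.41 (SE 0.14, adjusted p = 9.73e-13, edgeR). Among called genes with a mean log2 CPM of at least 5 and 1 direction in all 4 libraries, this was the largest fitted rise. Predicted and mitochondrial genes were not ranked. Hmox1 was low in Olig2-high cells and reached that minimum mean level only through the Olig2-low sums. Its levels were 78.4, 175, 60.1 and 46.2 CPM in Olig2-low cells and 20.6, 24.2, 8.89 and 10.7 CPM in Olig2-high cells. Replicate 2 was highest among the Olig2-low values, none of which overlapped the Olig2-high ones. Cells differed widely: 281 of the 797 UMIs in Olig2-low cells were in 1 cell and 65.5% in 10 cells. The highest of the 10864 Olig2-high cells held 5. Counted once per cell the rise was 0.60 (adjusted p = 0.00413, edgeR). A UMI was held by 21.2%, 23.3%, 17.3% and 15.2% of Olig2-low cells and by 14.8%, 16.3%, 6.50% and 8.0% of Olig2-high cells.

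Immediate early genes, the first genes that cells transcribe after a stimulus or stress, rose in 9 of 15 cases with a median of 0.67, and none fell. Atf3 was measured at 114, 105, 63.7 and 66.6 CPM in Olig2-low cells and at 32.5, 23.4, 12.6 and 12.6 CPM in Olig2-high cells, a rise of 2.05 (SE 0.11, adjusted p = 4.98e-13, edgeR). Junb, an AP-1 subunit, stood at 115, 129, 216 and 148 CPM against 45.3, 36.6, 42.1 and 36.6 CPM, a rise of 1.80 (SE 0.11). Neither gene's classes overlapped. Like Hmox1, Atf3 was low in Olig2-high cells and reached the minimum mean level of the ranking only through its Olig2-low sums. Egr1, a zinc finger factor downstream of ERK, rose by 1.21, Klf4 by 1.42 and Fos by 0.75. Counted once per cell, 7 of 15 rose with a median of 0.29.

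Among ERK output genes 5 of 16 rose, led by the phosphatase gene Dusp4 (1.70, SE 0.13), and 2 fell, Ccnd1 and Spry1, with a median of 0.15. Neither fall was called without replicate 1, without replicate 3 or against cells with 2 to 4 Olig2 UMIs, and without replicate 3 the median was 0.08. Dll3, an inhibitory Notch ligand, rose by 1.61 (SE 0.18), at 64.7, 24.7, 28.8 and 14.9 CPM against 13.1, 9.21, 9.18 and 12.5 CPM, and 34.3% of its UMIs were in 10 cells. Hes1 and Jag1 also rose and Dll1 fell, among 11 Notch genes tested. Without replicate 2, 1 of the 11 rose and none fell, and without replicate 3, 2 of 10 rose. At 8000 to 12000 UMIs 1 of 7 rose. Tubb3, a neuronal tubulin, rose by 1.5 (SE 0.14), at 111, 61.4, 25.2 and 9.51 CPM against 37.8, 23.8, 3.61 and 4.50 CPM. It was the only neuronal gene called of 3 tested, and 9 of the 17 neuronal genes were at 0 in Olig2-low cells.

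Id3, a dominant inhibitor of basic helix-loop-helix factors and a BMP target, rose by 1.42 (SE 0.18, adjusted p = 5.46e-06, edgeR). It was measured at 102, 94.3, 147 and 67.9 CPM in Olig2-low cells and at 51.9, 49.7, 19.6 and 20.7 CPM in Olig2-high cells. Replicate 3 moved most, and without it the difference was 1.02. Id1 differed by 0.41 (adjusted p = 0.107, edgeR) and Id2 fell by 0.40 on the log2 scale. Of the 6 BMP and Id genes tested, Id3 and Id2 were the ones called. None was lower without replicate 3, at 8000 to 12000 UMIs or against cells with 2 to 4 Olig2 UMIs, and Id1 stood at 0.07 without replicate 2.

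Hypoxia genes rose in 6 of 16 cases with a median of 0.22. The glucose transporter gene Slc2a1 led them, at 156, 119, 307 and 303 CPM against 91.0, 70.0, 118 and 130 CPM, a rise of 0.96 (SE 0.09, adjusted p = 5.44e-08, edgeR). Vegfa and P4ha1 rose, whereas Ldha, which encodes lactate dehydrogenase, fell by 0.33 on the log2 scale. Ero1l, a disulfide-forming oxidase of the endoplasmic reticulum, stood at 200.5, 147, 685 and 1277 CPM against 128, 81.7, 214 and 352 CPM. Without replicate 3, 3 of the 16 rose, and 4 without replicate 1 or replicate 4, and without replicate 4 the median was 0.04. Among all genes tested, 539 of 12392 rose without replicate 3, 578 of 12341 without replicate 1 and 887 of 13419 without replicate 4. Against cells with 2 to 4 Olig2 UMIs, 1 rose and 1 fell, and the median was -0.02. In low-cycle cells 1 of the 16 hypoxia genes was higher and 3 were lower, where 542 and 459 of all 10681 genes tested were.

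Interferon and MHC class I genes rose in 7 of 15 cases and fell in none, with a median of 0.37. Rsad2, which encodes the antiviral protein viperin, was measured at 176, 51.9, 120 and 34.0 CPM in Olig2-low cells and at 30.8, 21.5, 15.5 and 13.0 CPM in Olig2-high cells, a rise of 2.06 (SE 0.17, adjusted p = 1.55e-09, edgeR). Isg15, a ubiquitin-like interferon product, stood at 145, 83.9, 194 and 21.7 CPM against 70.7, 35.7, 33.9 and 19.8 CPM, a rise of 1.34 (SE 0.16, adjusted p = 2.34e-06, edgeR). With DESeq2 Isg15 was not called (1.19, adjusted p = 0.0655). Replicate 4 was nearly level for Isg15, and without replicate 3 its rise was 0.98. Of the Rsad2 UMIs in Olig2-low cells, 58.6% were in 10 cells. Rsad2 too was low in Olig2-high cells and reached the minimum mean level of the ranking only through its Olig2-low sums. At 8000 to 12000 UMIs 3 of 13 genes in this list rose with a median of 0.04. H2-D1, B2m and H2-K1, which make up MHC class I molecules, rose by 0.46, 0.39 and 0.37.

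The promoter windows of Rsad2 and Isg15 are shown because both genes rose and both windows hold the core of the interferon-stimulated response element. Each runs from 250 bases before to 50 bases after a transcription start, 5′ to 3′ on the gene's strand, from RefSeq (GRCm38.p6). Rsad2 lies at chr12:26456403-26456702 and Isg15 at chr4:156200769-156201068, both on the minus strand. Capitals mark matches to GAAANNGAA, searched on both strands with overlaps allowed.
Rsad2: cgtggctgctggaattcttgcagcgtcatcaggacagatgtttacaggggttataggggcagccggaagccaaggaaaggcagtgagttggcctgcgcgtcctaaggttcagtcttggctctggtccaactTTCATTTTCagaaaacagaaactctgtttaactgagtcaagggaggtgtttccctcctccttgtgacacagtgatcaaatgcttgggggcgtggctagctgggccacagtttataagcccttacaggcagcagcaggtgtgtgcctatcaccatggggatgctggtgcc
Isg15: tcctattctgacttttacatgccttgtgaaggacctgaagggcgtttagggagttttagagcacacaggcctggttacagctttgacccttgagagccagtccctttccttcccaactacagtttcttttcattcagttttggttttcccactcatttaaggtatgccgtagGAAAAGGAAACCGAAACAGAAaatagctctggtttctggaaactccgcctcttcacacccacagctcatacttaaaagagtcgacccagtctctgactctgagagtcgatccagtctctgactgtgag

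Rsad2 held 1 match, on the opposite strand and beginning 119 bases before the start, and Isg15 held 3 overlapping matches from 78 bases before it. Of all 32851 RefSeq promoter windows, 8.56% held the core. It was also present in the window of Spp1, and so in 3 of the 38 named genes that had a window. The AP-1 site TGANTCA, present in 7.81% of all windows, was found for Rsad2, Gpnmb and Ddit3. The E-box CAGNTG, a motif that Olig factors can bind, was in 4 of 8 windows of the largest rises and 5 of 9 of the largest falls, against 51.4% of all windows. These are matches of letters and no evidence of binding.

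The list with the most falls was that of G2/M genes, which act in the last phase before division and in mitosis. Of 24 genes, 17 fell and none rose, with a median of -0.39. Ube2c, which encodes the ubiquitin-conjugating enzyme of the anaphase-promoting complex, stood at 390, 456, 369 and 433 CPM in Olig2-low cells and at 572, 718, 669 and 624 CPM in Olig2-high cells, a difference of -0.71 (SE 0.08, adjusted p = 1.41e-06, edgeR). Cdc20, Ccna2 and Plk1 fell by 0.56, 0.57 and 0.58 on the log2 scale. Depth moved with this result: among cells of 8000 to 12000 UMIs 2 of the 24 genes fell, the median was -0.08, and Ube2c stood at -0.26. Of all 10453 genes tested at that depth, 265 fell. Of the 24 genes, 8 fell without replicate 2, 10 without replicate 3 and 4 in low-cycle cells. All genes tested gave 577 of 12229, 328 of 12392 and 459 of 10681 falls, in that order. Low-cycle cells were chosen by the sum of these same genes, so their count is shaped by that choice. Against cells with 2 to 4 Olig2 UMIs none fell and the median was -0.10, and against cells with at least 10 UMIs 23 fell with a median of -0.58. Over all genes tested, 165 of 11108 fell in the former comparison and 946 of 11417 in the latter. Mki67, the proliferation antigen, differed by -0.30 (adjusted p = 0.118, edgeR), with replicate 1 at 288 against 209 CPM and the other 3 libraries lower in Olig2-low cells. Without replicate 1 it was called, at -0.59 (adjusted p = 0.0022, edgeR).

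G1/S genes fell in 6 of 22 cases, among them Mcm5, Mcm6 and Tyms, with a median of -0.28, while the G1 cyclin Ccne1 rose. Without replicate 3 none of the 22 was called, and 3 fell without replicate 4. None was called with Olig2 counted after thinning, and at 8000 to 12000 UMIs 2 fell and 0 rose. No G1/S gene rose without replicate 1, without replicate 2, with another thinning seed or with DESeq2. Of 22 sterol synthesis genes, 3 rose and 1 fell, and none was called without replicate 1. Per cell, the G1/S genes summed to 13.03 ± 5.32 UMIs at 8000 UMIs in Olig2-low and 15.4 ± 2.37 in Olig2-high cells (SD, n = 4), lower in 2 of 4 libraries (exact sign-flip permutation p = 0.5). The G2/M genes summed to 23.3 ± 3.59 UMIs at 8000 UMIs in Olig2-low and 31.2 ± 3.01 in Olig2-high cells (SD, n = 4), lower in 4 of 4 libraries, with an exact sign-flip permutation p of 0.125, the smallest that 4 libraries allow, and 0.625 after adjustment over 5 measures. The chromatin genes Hmgb2, an HMG box protein, and H2afz, which encodes histone H2A.Z, fell by 0.64 each. For H2afz the classes were 998, 1569, 1875 and 1758 against 1244, 1815, 3401 and 3387 CPM, lowest in replicate 1 in both.

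The other large falls were of mixed function. Polr3k, a subunit of RNA polymerase III, had the lowest difference among the named genes, -0.82 (SE 0.10, adjusted p = 1.4e-06, edgeR), at 226, 302, 224 and 221 CPM in Olig2-low cells against 337, 433, 498 and 414 CPM in Olig2-high cells. All Olig2-low values lay under all Olig2-high ones. B3gat2, a glucuronyltransferase gene, Sapcd2, Kpna2, an importin gene, Cdkn3, a phosphatase gene of the cell cycle, Cdca7 and Cmss1 fell by 0.62 to 0.75 on the log2 scale. Each fell in 4 of 4 libraries, which the choice of genes required. Against cells with 2 to 4 Olig2 UMIs, B3gat2, Sapcd2, Kpna2 and Cdkn3 were not called. In low-cycle cells B3gat2, Sapcd2 and Kpna2 were not called (adjusted p = 0.120, 0.172 and 0.0507, edgeR). At 8000 to 12000 UMIs Sapcd2 and Cdkn3 were not called.

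RNA quality was compared by the median cell of each library. The mitochondrial share was 1.12% ± 0.0352 in Olig2-low and 1.06% ± 0.0717 in Olig2-high cells (SD, n = 4, exact sign-flip permutation p = 0.375, 2-sided). Cells with 5% or more mitochondrial UMIs were 18 of 255, 7 of 395, 5 of 104 and 1 of 92 Olig2-low cells, or 7.06%, 1.77%, 4.81% and 1.09%. They were 16 of 2452, 8 of 2757, 97 of 4292 and 19 of 1363 Olig2-high cells, or 0.653%, 0.290%, 2.26% and 1.39%. The share was higher in Olig2-low cells of replicates 1 to 3. Without such cells 1665 genes were called, and of the 42 named genes called before, Xylt1 lost its call. Genes detected at 8000 UMIs numbered 3143 ± 100.7 and 3163 ± 81.0 (exact permutation p = 0.250). Ribosomal protein genes took 17.9% ± 2.13 and 18.1% ± 1.58 of UMIs (exact permutation p = 0.625). RNAs retained in the nucleus were higher: Malat1, Neat1 and Kcnq1ot1, all 3 tested, rose by 0.39, 0.71 and 0.46 (1 of 3 without replicate 1), and their summed list was 41.4 UMIs per cell against 30.1. Counted once per cell none of the 3 was called and Neat1 stood at 0.03 (adjusted p = 0.790, edgeR). The part of a more nuclear RNA content in the other differences was not tested.

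**Figure D2:**
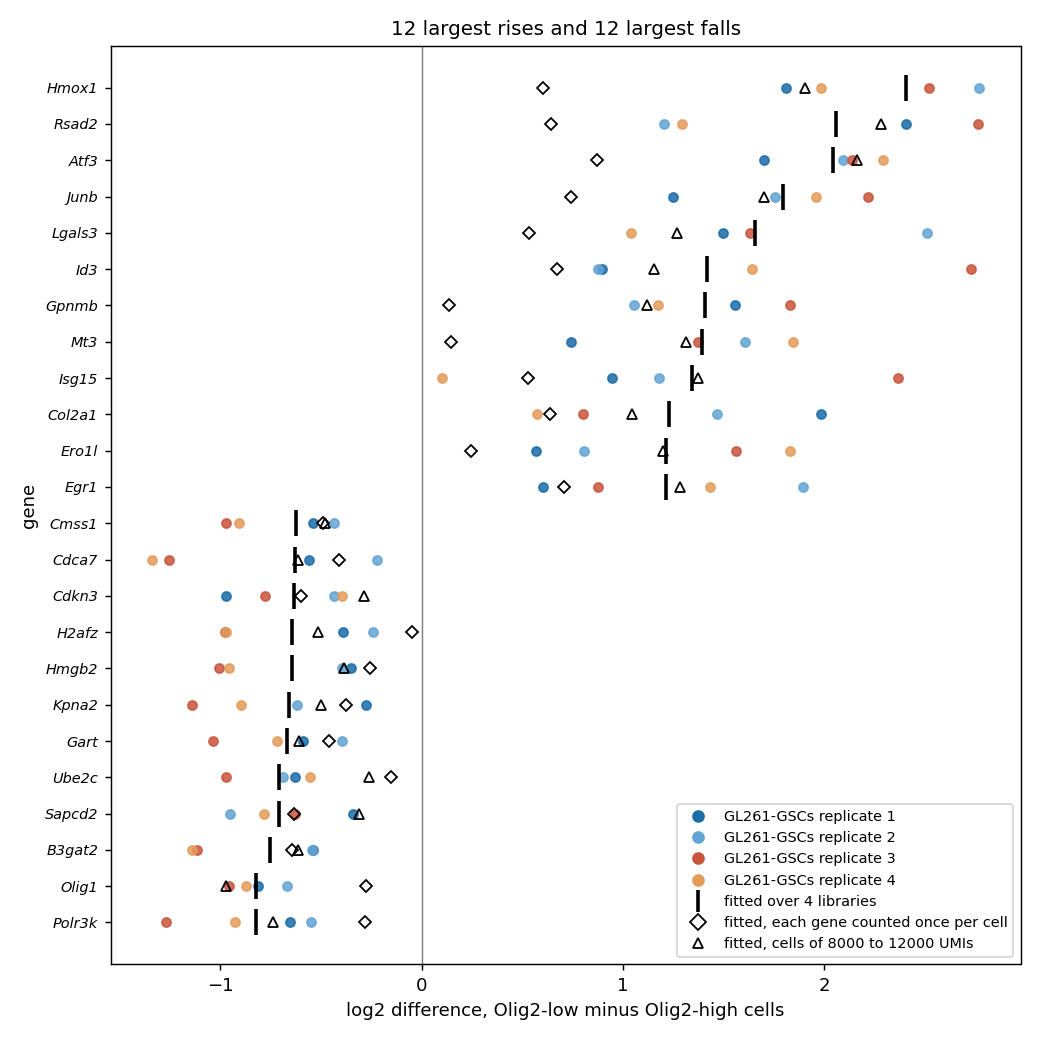
Log2 difference of Olig2-low minus Olig2-high cells (x axis) for the 12 largest rises and 12 largest falls (y axis), with a dot per GL261-GSCs library, a black bar for the fitted value, a diamond for the fit with each gene counted once per cell and a triangle for cells of 8000 to 12000 UMIs. The choice of genes required 1 direction in all 4 libraries. All dots of the rises thus lie right of 0 and all dots of the falls left of it. The diamonds of the rises lie between 0.14 and 0.87.

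How far the UMIs of rises and falls were spread over cells is given as a description. A rise could reach the minimum mean level through a few Olig2-low cells, and a fall could not, so the choice of genes shapes this contrast. Among the 12 largest rises, the 10 highest Olig2-low cells held 17.8% (Ero1l) to 65.5% (Hmox1) of the gene's UMIs. Among the 12 largest falls that share was 4.69% (H2afz) to 17.1% (Cdkn3). With every gene counted once per cell, an alternative chosen after seeing these values, 538 genes were higher and 578 lower, and 10 of the 12 rises kept their call, Gpnmb and Mt3 being the exceptions. Of the falls, Ube2c and H2afz lost their call.

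**Figure D3:**
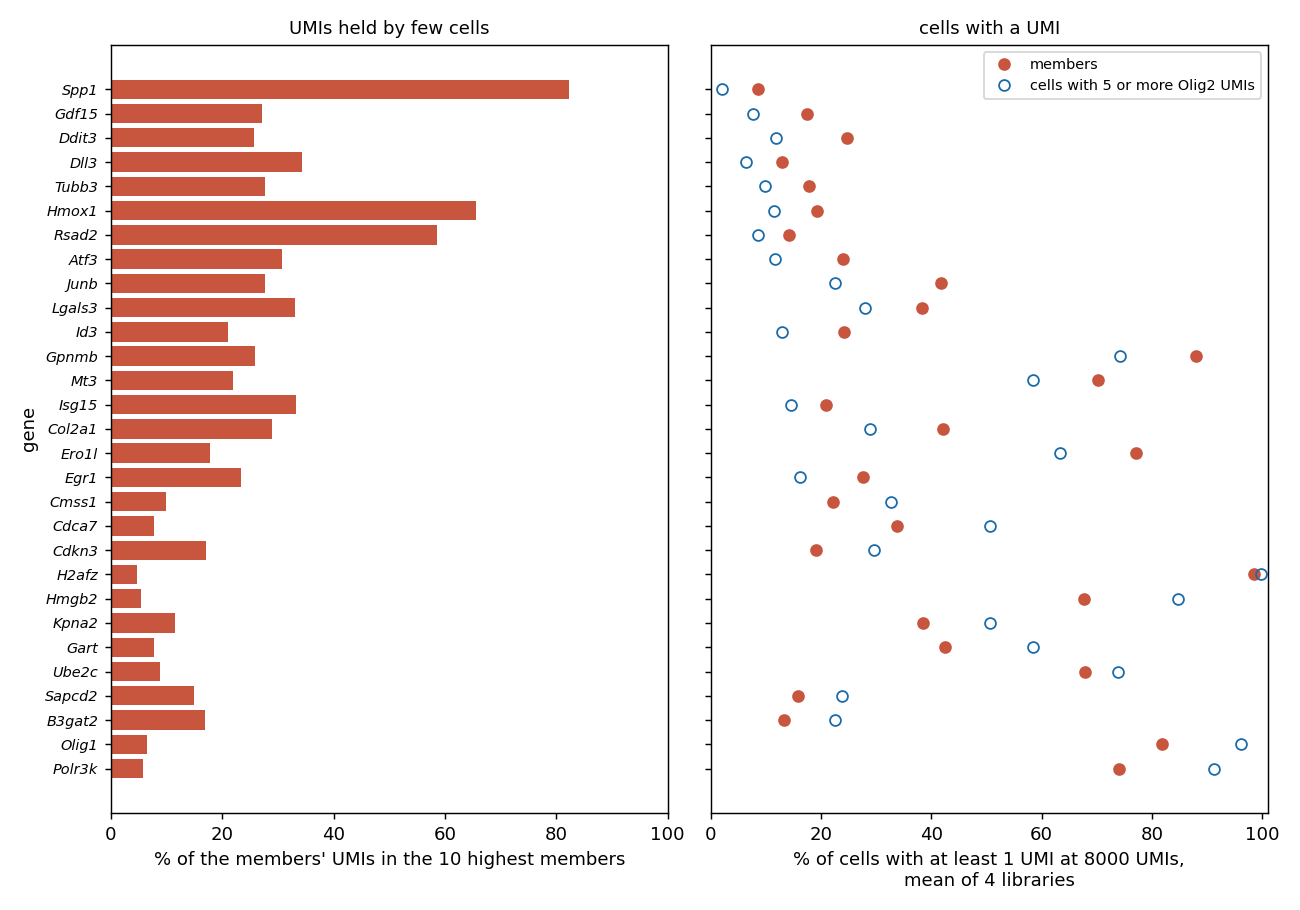
Left, the share of a gene's UMIs in Olig2-low cells held by the 10 highest of the 846 cells (x axis, %); right, cells holding a UMI of the gene (x axis, % of cells, mean of 4 libraries) in Olig2-low (filled) and Olig2-high cells (open). Spp1, Hmox1 and Rsad2 have the longest bars at 82.2%, 65.5% and 58.6%, and the falls have short bars.

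Levels of the 12 largest rises and 12 largest falls, genes chosen for a difference along the same Olig2 counts, were followed over 5 classes as a description. In 11 of the 12 rises and all 12 falls, the mean level of cells with 2 to 4 Olig2 UMIs lay between those of cells with 1 UMI and with 5 to 9. All 5 classes, from 0 to 10 or more UMIs, were in order for 9 of the 12 rises (all but Rsad2, Isg15 and Col2a1) and 7 of the 12 falls. In 10 of the 12 rises the cells with 0 Olig2 UMIs stood higher than those with 1.

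**Figure D4:**
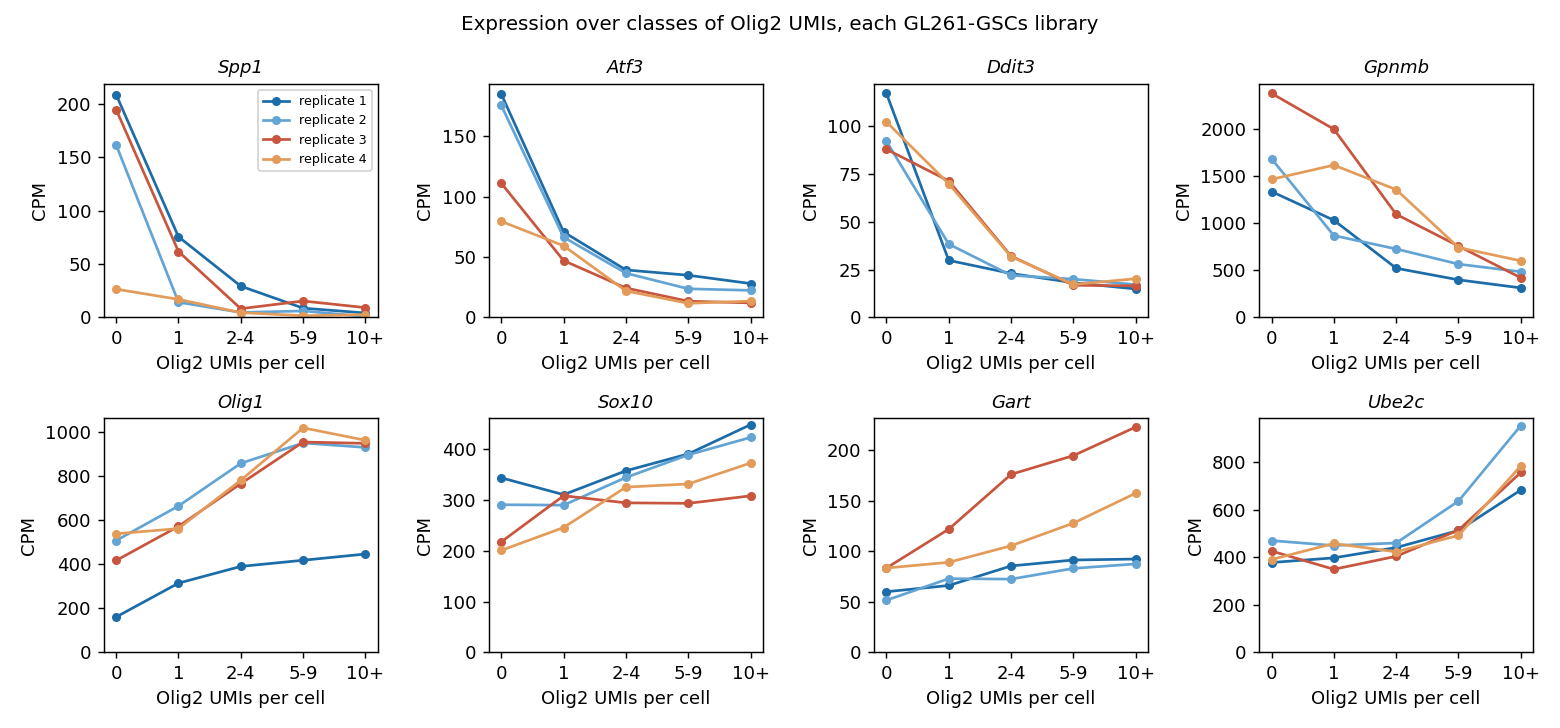
Level in CPM (y axis, from 0) of 8 genes over classes of Olig2 UMIs per cell (x axis), with a line per GL261-GSCs library. Spp1, Atf3, Ddit3 and Gpnmb are highest in the 0 or 1 UMI classes, Olig1, Sox10 and Gart have their lowest value there, and Ube2c climbs mainly between the classes of 5 to 9 and 10 or more.

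Chromosome 16, which carries Olig2, had slightly lower sums. Across its 407 tested genes the median difference was -0.085, the lowest of the chromosomes with more than 1 tested gene. Of the 407, 39 were called lower and 16 higher, where 6.92% and 7.63% of all genes tested were. Chromosome 11, with 962 tested genes, had the next lowest median, -0.03. The share of all UMIs from chromosome 16 was lower in Olig2-low cells of every library, by -0.08, -0.08, -0.07 and -0.14 on the log2 scale with Olig2 removed. Other chromosomes also kept their direction in every library. Chromosome 19 moved by 0.12, 0.07, 0.10 and 0.09, and chromosome 11 by -0.03, -0.06, -0.08 and -0.04. Within 5 Mb of Olig2, leaving out Olig1, 54 genes were tested, of which 8 fell and 4 rose, and the median was -0.10. Their summed share fell in each library, by 0.11, 0.06, 0.17 and 0.23 on the log2 scale. Of the 352 tested genes of chromosome 16 farther than 5 Mb from Olig2, 30 fell and 12 rose, and the median was -0.08. The summed share of those farther genes moved by -0.06, -0.06, -0.02 and -0.09.

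Gart, a purine synthesis enzyme gene about 0.4 Mb from Olig2 (chromosome 16, 91621186 to 91646952), was among the 12 largest falls. It stood at 63.7, 65.2, 112 and 87.0 CPM in Olig2-low cells against 91.6, 84.1, 213 and 141 CPM, a difference of -0.67 (SE 0.10, adjusted p = 5.31e-05, edgeR), and at 8000 to 12000 UMIs it was -0.61. Cfap298, Urb1, Atp5o, Smim11, Cct8 and Hmgn1 also fell within 5 Mb, by 0.55, 0.52, 0.36, 0.37, 0.40 and 0.39 on the log2 scale, with 1 predicted gene beside Olig2. Slc5a3, Rcan1, Runx1 and Bach1 rose there, by 0.49, 0.46, 1.0 and 0.32. These neighbours were named after their values were seen. DNA copy number was not measured.

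**Figure D5:**
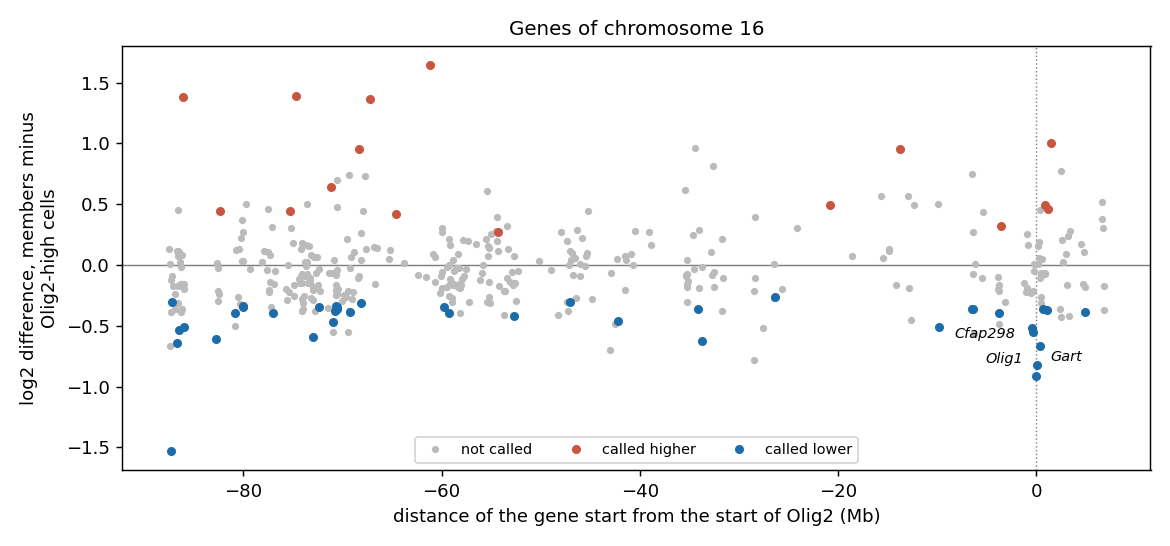
Log2 difference of Olig2-low minus Olig2-high cells (y axis) for each tested gene of chromosome 16 by its distance from Olig2 in Mb (x axis). Distances were taken between gene midpoints, although the axis label names starts. Genes called higher are in red, called lower in blue and not called in grey. Olig1 and Gart are among the lowest points near 0, and lower calls also occur more than 20 Mb away.

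The called genes were set beside the serum-grown line. Of the 943 genes called higher in Olig2-low cells, GL261 exceeded all 4 Olig2-high values for 36.3% and lay below all 4 for 33.4%. Of the 855 called lower, GL261 exceeded all 4 for 16.8% and lay below all 4 for 31.7%. Over all genes tested the shares were 23.6% and 34.0%. Lgals3, Id3 and Col2a1 were higher in GL261 than in either class, whereas Mt3, Rsad2 and Ero1l were lower there than in every Olig2-low class. Markers of other cell types were low. Fibroblast and pericyte markers summed to 0 to 7.21 CPM in Olig2-low and 0.153 to 0.275 CPM in Olig2-high cells, with 3 of 6 at 0 in Olig2-low cells. None passed the filter on low counts, and without that filter 1 of 3 was called higher. Their part in the results was not tested. Ependymal markers summed to 0 to 3.16 CPM in Olig2-low and 1.22 to 2.07 CPM in Olig2-high cells, with none tested. Flt1, the 1 endothelial marker tested, differed by -0.03 (adjusted p = 0.920, edgeR).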

How the data were processed

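The 5' single-cell libraries analysed were 4 of GL261-GSCs and 2 of GL261. The authors deposited raw UMI counts per gene and barcode, with no barcodes removed. Per the file headers the software was Cell Ranger 4, and per the submitters' processing notes the genome was mm10. Neither the aligner settings nor the annotation release is stated in the labels or headers. Of the 12353 genes tested, 12347 matched GENCODE M21 by identifier.

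Deep cells (8000 UMIs, 500 genes, under 10% mitochondrial UMIs) were thinned to 8000 UMIs without replacement. Class sums per library were fitted in edgeR 4.0.16 (R 4.3.3; TMM, filterByExpr, Benjamini-Hochberg over all genes, 2-sided) with the library as a block, since both classes come from the same library. The SE is the absolute log2 difference divided by the square root of F. limma 3.58.1 and DESeq2 1.42.0 were alternatives. Single values had exact sign-flip permutation tests over 4 libraries. Neighbours used 30 principal components of 2000 variable genes (numpy 2.4.6). The fits were tested on simulated data. Doublets were not called. An alternative left out cells above 25000 UMIs.

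The members, lists and tests were chosen with earlier results of these data known. Named genes were the 12 largest rises and 12 largest falls with adjusted p under 0.05, average log2 CPM of at least 5 and 1 direction in all 4 libraries, predicted and mitochondrial genes left out, plus 18 fixed genes and the smallest p of each of 23 lists, as well as the genes within 5 Mb of Olig2. All 362 list symbols were found. Some genes of the lists are counted but not reported here by name.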

Additional observations from a re-analysis of the deposited data

Results flagged for a closer look

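The log2 ratio of Olig2-low over Olig2-high cells for Xylt1, a xylosyltransferase gene that starts proteoglycan chains, was 0.48 in GL261-GSCs replicate 4, far from the other 3 libraries relative to their range. The fitted difference was 0.33 (adjusted p = 0.0179, edgeR) and ranged from 0.02 to 0.39 over the alternatives. It was 1 of 60 values checked in this way, and chance flags about 1 in 20.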

How the results depend on the processing

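The alternatives that changed the number of genes called from 1798 by more than 1.5 times were DESeq2 (1134), Olig2 counted after thinning (520), comparison with cells of 2 to 4 Olig2 UMIs (484), cells of 8000 to 12000 UMIs (683) and low-cycle cells (1001). Counting each gene once per cell, chosen after seeing the data, gave 1116. With no replicate block only 9 genes were called, all higher, while 1039 had an unadjusted p under 0.05 (edgeR), so nearly all calls rest on the pairing of both classes within a library. Leaving out a library gave 867 (without replicate 3) to 1642 calls, 1047 without replicate 1 and 1197 without replicate 2. Another thinning seed gave 1747 calls, of which 1462 were shared. Of the 42 named genes called, 39 lost their call with no replicate block, 10 against cells of 2 to 4 Olig2 UMIs and 1 to 3 when a library was left out. Keeping every gene with a UMI gave 731 higher and 1391 lower, and limma-voom 1067 and 753. The mean share of Olig2-low cells was 9.80% in cells of 8000 to 12000 UMIs and 14.7% with Olig2 counted after thinning, where the neighbour ratio fell from 1.88 to 1.26. None of the 42 named genes called changed sign where it could be fitted, whereas of all genes called 1754 of 1785 kept their sign when counted once per cell. Depth limits the Olig2 count itself, since few Olig2 UMIs are counted in a cell of 8000 UMIs.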
